A study of Mus musculus with 24 samples.

Results

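Aged long-term hematopoietic stem cells (LT-HSC) were set against aged multipotent progenitors (MPP) across all genes, with LT-HSC minus MPP as the direction of every difference. The comparison rests on 8 of the 24 bulk RNA-seq libraries of the study: the 4 whose titles name old LT-HSC and the 4 whose titles name old MPP. Both populations came from bone marrow of male C57BL/6 mice aged 107 weeks, enriched for CD117 (Kit) before the sort, and both lay in the LSK gate (no lineage markers, Sca1 and Kit on the surface). Aged LT-HSC carried CD150 and lacked CD48, whereas aged MPP carried CD48 and lacked CD150. Short-term stem cells (ST-HSC), which lacked both CD150 and CD48, were also sorted at 107 weeks, and the same 3 populations were sorted from males aged 12 weeks, again with 4 libraries a group. No genetic change or treatment is given for any group. The labels speak of 4 mice at each age but tie no library to a mouse, so the p-values measure the spread between libraries, part of which may be technical.

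LT-HSC are the cells that rebuild all blood lineages over a lifetime, and most of them are out of the cell cycle at any moment. MPP lie downstream, divide more often and have lost long-term self-renewal. The CD48-positive gate used for MPP is known to hold progenitors primed for lymphoid and for myeloid fates side by side, so an MPP value is a mean over a mixture. In bulk samples, fewer cells that use a gene and less RNA of that gene in each cell cannot be told apart.

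The 4 aged LT-HSC libraries held 7792983 to 9881620 counts and the 4 aged MPP libraries 10705210 to 11907421. Between 15528 and 15868 genes had a count in an aged LT-HSC library, against 15549 to 15825 genes in an aged MPP library. Rn45s, the ribosomal RNA precursor, took 5.64% to 6.95% of the counts in aged LT-HSC and 8.06% to 9.92% in aged MPP. Pearson correlations between libraries of a group, over log2 CPM of all tested genes, ran between 0.959 and 0.9718 in aged LT-HSC and between 0.9597 and 0.9735 in aged MPP. Aged MPP replicate 4 lay apart on the second principal component, at -62 against -35.4 to -37.8 for the other 3 aged MPP libraries. Aged MPP replicates 2 and 4 also carried the most plasma cell RNA, and many results are also given without them. Values for single genes are CPM, read counts divided by library size to a common total, scaled between libraries by the trimmed mean of M-values.

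Of 14205 genes tested, 8068 differed between aged LT-HSC and aged MPP at an adjusted p under 0.05 (edgeR's quasi-likelihood test, Benjamini-Hochberg adjustment), which is 56.8% of them. In aged LT-HSC 4016 genes were higher (28.3%) and 4052 were lower (28.5%), and the median difference over all tested genes was 0.02 on the log2 scale. At least 2-fold differences were more frequent upward, with 2200 genes higher (15.5%) and 1593 lower (11.2%), and at least 8-fold differences numbered 662 higher and 456 lower. For 7269 genes (51.2%) the 4 libraries of each group did not overlap. The count of each gene list is read against these shares. Without aged MPP replicates 2 and 4, 6890 genes were called, 3343 higher and 3547 lower.

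**Figure D1:**
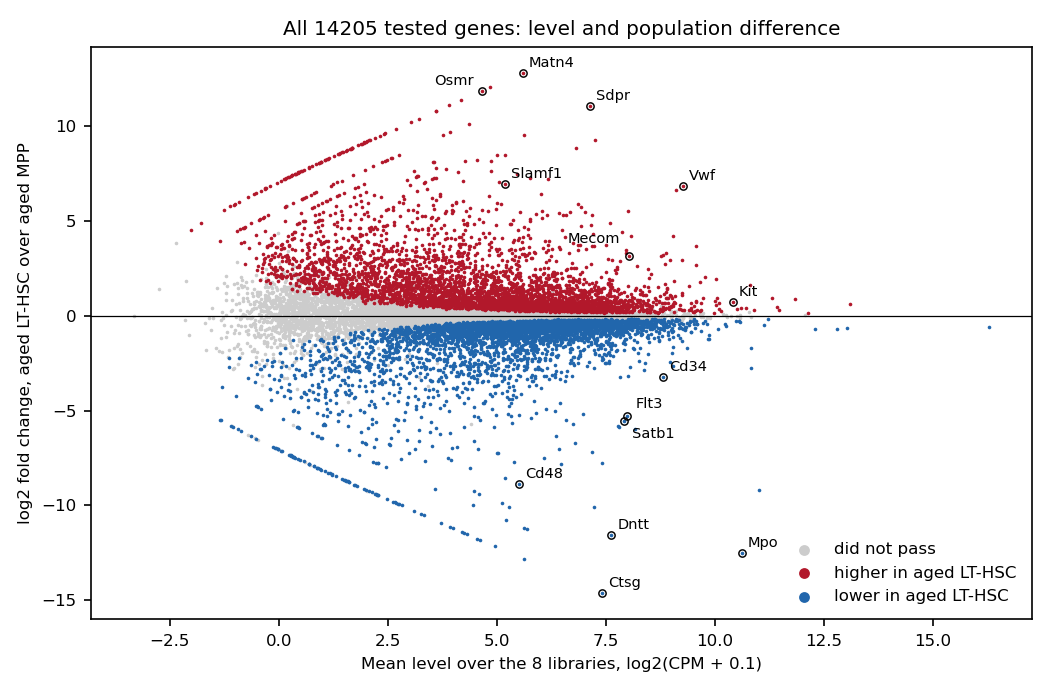
Log2 fold change of aged LT-HSC over aged MPP against the mean level of the 8 libraries, as log2 of CPM plus 0.1, for every tested gene, with called genes coloured by direction and some named genes circled. Called genes lie on both sides in near-equal number (4016 higher and 4052 lower), and Matn4 and Osmr at the top and Ctsg and Mpo at the bottom have a group at or near 0.

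The genes of the sort gate were read first, as a check of the labels and not as a finding. Slamf1, which encodes CD150, had 64.8, 88.4, 72.3 and 62.7 CPM in aged LT-HSC, against 0.197, 0.889, 0.187 and 0.981 CPM in aged MPP. Cd48 had 0, 0.203, 0.51 and 0 CPM in aged LT-HSC, against 87.3, 83, 93.0 and 97.7 CPM in aged MPP. Both genes followed the gate in all 8 libraries. Kit, on which both populations were selected, averaged 1694 ± 82.6 CPM in aged LT-HSC and 1041 ± 98.8 CPM in aged MPP (SD, n = 4 each), a log2 difference of 0.70 ± 0.07 (SE; adjusted p = 9.3e-09). Ly6a, which encodes Sca1, overlapped between the groups and was not called (log2 difference 0.22 ± 0.29, adjusted p = 0.54). Without aged MPP replicates 2 and 4, where Ly6a stood at 109 and 107 CPM, its difference was 0.93 with an adjusted p of 0.012.

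The genes of largest difference were present in aged LT-HSC and had no or almost no counts in aged MPP, or the reverse. Matn4 (chromosome 2, 164389393 to 164405160 of GRCm38.p6), a matrix protein known as a brake on the stress response of stem cells, had 101, 104, 107 and 74.1 CPM in aged LT-HSC and no count in any aged MPP library. Against the floor of 3 counts over the group it was at least 1364-fold higher in aged LT-HSC. Adgrg2, an adhesion G-protein-coupled receptor, was at least 806-fold higher, with 46.8, 62.7, 55.5 and 62.8 CPM in aged LT-HSC and 0 in all 4 aged MPP libraries. Osmr, the receptor chain for oncostatin M, had 57.6, 52.6, 43.1 and 47.9 CPM in aged LT-HSC and 0 in aged MPP, at least 711-fold higher. Osmr had no count in the aged ST-HSC libraries either. The potassium channel Kcnb2 was at least 521-fold higher, the tight junction protein Ocln at least 425-fold and the zinc finger gene Zfp334 at least 346-fold, each with no count in aged MPP.

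Sdpr, a caveola protein, had 290, 330, 249 and 252 CPM in aged LT-HSC, against 0.494, 0, 0 and 0 CPM in aged MPP. Its log2 difference was 11.05 ± 0.70 (SE). Sfrp1, a secreted Wnt antagonist, and Ccbe1, a secreted factor of lymphatic growth, had 1 count each over the 4 aged MPP libraries. The ratio of aged LT-HSC to aged MPP was 1731 for Sfrp1 (95% counting interval 310 to 68423) and 1279 for Ccbe1 (229 to 50584). Meg3, a maternally expressed imprinted RNA, had 119, 69.5, 54.0 and 149 CPM in aged LT-HSC, against 0.0987, 0.178, 0.0937 and 0.0981 CPM in aged MPP. These intervals and the floors cover counting error alone.

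The largest differences in the other direction included granule enzymes and lymphoid genes. Ctsg, the neutrophil granule protease cathepsin G, had no count in aged LT-HSC, against 341, 174, 441 and 415 CPM in aged MPP, and was at least 3866-fold lower in aged LT-HSC. Mpo (chromosome 11, 87793784 to 87804412), myeloperoxidase of the same granules, had 0.605, 0.711, 0.255 and 0.488 CPM in aged LT-HSC, against 3118, 1339, 4401 and 3763 CPM in aged MPP. The Mpo difference was -12.51 ± 2.24 on the log2 scale (SE; adjusted p = 9.9e-05). Under limma-voom, Ctsg and Mpo missed the threshold (adjusted p 0.057 and 0.084) although no library of one group reached the other. Il1rl1, the receptor for IL-33, had no count in aged LT-HSC, against 4.84, 27.5, 42 and 112 CPM in aged MPP, at least 526-fold lower in aged LT-HSC (limma-voom adjusted p 0.062).

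Dntt, the terminal transferase of antigen receptor rearrangement, had 0, 0, 0.51 and 0 CPM in aged LT-HSC, against 363, 535, 252 and 424 CPM in aged MPP. Its log2 difference was -11.56 ± 0.61 (SE). Il7r, the IL-7 receptor of lymphoid progenitors, was at least 444-fold lower in aged LT-HSC, with no count there and with 7.6, 31.0, 8.62 and 111 CPM in aged MPP. Ikzf3, a lymphoid zinc finger factor, was at least 419-fold lower in aged LT-HSC, with 16.2, 47.8, 13.5 and 69.5 CPM in aged MPP. Slamf7, a receptor of natural killer and plasma cells, was at least 558-fold lower, with 32.0, 52.0, 36.6 and 75.7 CPM in aged MPP. The calcium channel Cacna1h (at least 1121-fold), the sialic acid enzyme Cmah (at least 702-fold) and E-selectin, Sele (at least 433-fold), were lower in aged LT-HSC with no count there. In Dntt, Il7r, Ikzf3, Slamf7, Cacna1h and Cmah the aged MPP replicates 2 and 4, which held the most plasma cell RNA, were the highest of the 4.

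**Figure D2:**
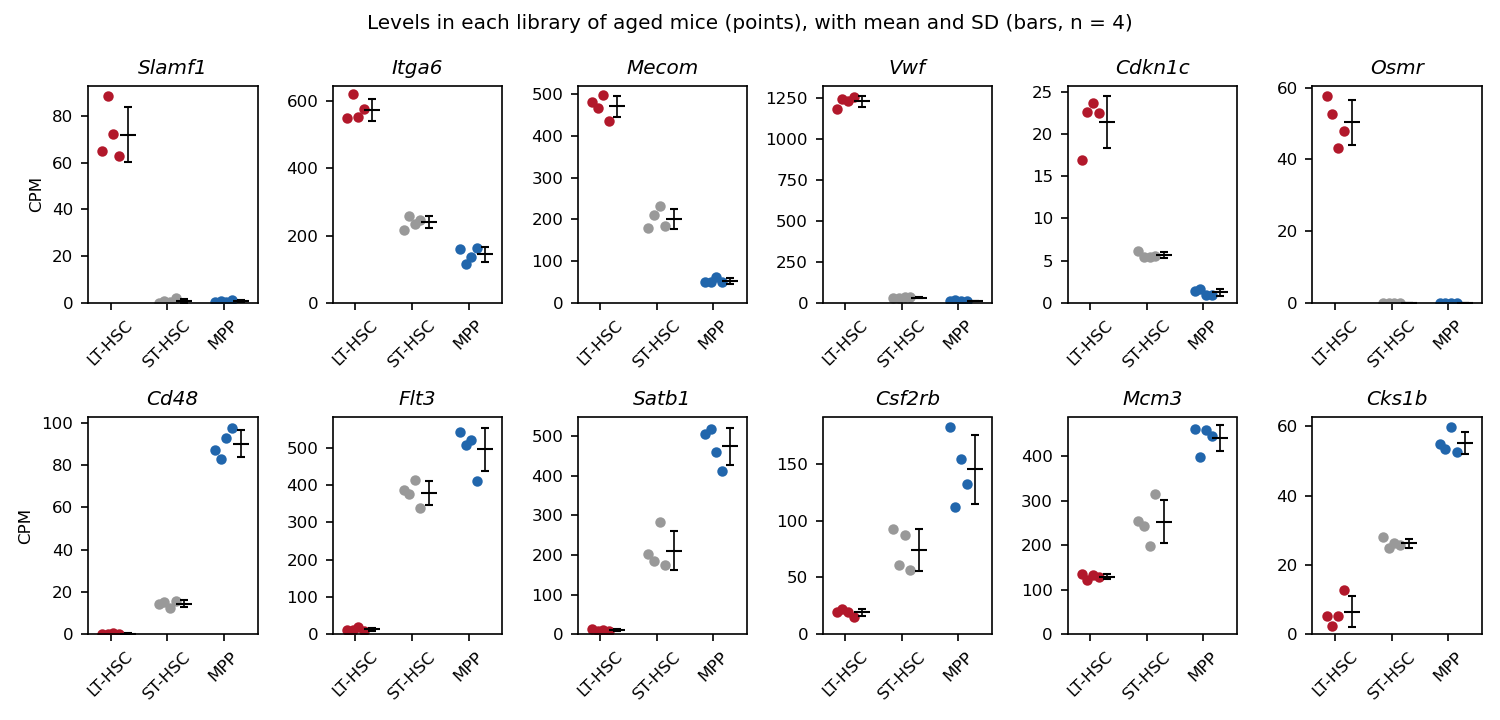
CPM of 12 genes in each aged library (points), for aged LT-HSC, ST-HSC and MPP from left to right, with mean and SD (bars, n = 4). Itga6, Mecom and Vwf lie higher in all 4 aged LT-HSC libraries than in any aged MPP library, and Flt3, Satb1, Csf2rb, Mcm3 and Cks1b lie lower in all 4.

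Of 40 tested regulators of stem cell identity, 37 were higher in aged LT-HSC than in aged MPP, 1 was lower and 2 were not called, with a median log2 difference of 2.14 against 0.02 for all tested genes. Mecom (chromosome 3, 29951296 to 30509759), a zinc finger factor needed for stem cell maintenance, had 482, 467, 497 and 436 CPM in aged LT-HSC, against 49.3, 48.9, 61.5 and 48.5 CPM in aged MPP. Its log2 difference was 3.18 ± 0.10 (SE; adjusted p = 2.4e-19). No library of either group came near the other for Mecom. The ubiquitin ligase Trim47 averaged 282 ± 21.9 CPM in aged LT-HSC and 7.05 ± 2.43 CPM in aged MPP, a log2 difference of 5.32. The LIM protein Fhl1 averaged 202 ± 35.9 CPM in aged LT-HSC and 4.56 ± 1.44 CPM in aged MPP, a log2 difference of 5.46. The lower member was the potassium channel Kcnk12 (log2 difference -4.62), and those not called were Hoxa9 and Foxo3. These exceptions were picked out after their values were seen, as were exceptions of other lists named below.

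Surface proteins of stem cells and progenitors, a list with markers of both, went both ways. Of 28 tested, 15 were higher in aged LT-HSC, 11 were lower and 2 were not called, with a median log2 difference of 0.91. Procr, the endothelial protein C receptor used to purify stem cells, averaged 89.0 ± 15.4 CPM in aged LT-HSC and 7.58 ± 2.28 CPM in aged MPP. Itga6, the laminin receptor chain CD49f, had 550, 620, 552 and 576 CPM in aged LT-HSC, against 161, 115, 137 and 162 CPM in aged MPP. The groups were far apart for Itga6, with a log2 difference of 2.00 ± 0.09 (SE; adjusted p = 6.7e-16). Flt3, the receptor that marks progenitors with lymphoid potential, had 12.7, 10.3, 18.9 and 9.39 CPM in aged LT-HSC, against 542, 509, 523 and 411 CPM in aged MPP. Flt3 fell by 5.28 ± 0.15 on the log2 scale (SE; adjusted p = 3.1e-19). Cd34, a sialomucin that adult mouse LT-HSC mostly lack, averaged 85.7 ± 6.79 CPM in aged LT-HSC and 817 ± 47.0 CPM in aged MPP, a log2 difference of -3.25.

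Platelet and megakaryocyte genes were mostly higher in aged LT-HSC. Of 33 tested, 25 were higher, 1 was lower and 7 were not called, with a median log2 difference of 2.07. Vwf (chromosome 6, 125552948 to 125686679), the platelet adhesion protein von Willebrand factor, had 1184, 1245, 1235 and 1255 CPM in aged LT-HSC, against 7.9, 14.9, 10.3 and 9.81 CPM in aged MPP. The Vwf difference was 6.83 ± 0.28 on the log2 scale (SE; adjusted p = 4.4e-14), with a narrow spread in both groups. Mmrn1, a multimerin of platelet granules, averaged 514 ± 13.1 CPM in aged LT-HSC and 28.3 ± 6.59 CPM in aged MPP (log2 difference 4.18). Selp, P-selectin, averaged 453 ± 51.2 CPM in aged LT-HSC and 46.4 ± 19.6 CPM in aged MPP (log2 difference 3.29 ± 0.35). Zfpm1, the GATA1 cofactor FOG1, was higher by 2.04. The platelet chemokines Pf4 and Ppbp, products of mature megakaryocytes, were not called, and Itgb1bp2 was lower, at -0.96. Markers of endothelial and stromal cells summed to 0.191% to 0.202% of counts in aged LT-HSC, of which Vwf made up 60.2% to 64.9%, and to 0.0484% to 0.0668% in aged MPP, where Pdgfrb led, with 5 of 13 higher in aged LT-HSC and 3 lower. Adipoq was at 0 in all libraries of both groups. Cdh5, VE-cadherin, reached no more than 0.488 CPM in an aged LT-HSC library.

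Lymphoid priming genes were lower almost throughout. Of 36 tested, 31 were lower in aged LT-HSC than in aged MPP, 2 were higher (Mef2c by 0.52 and Bcl11a by 0.79 on the log2 scale) and 3 were not called, with a median of -4.38. Satb1, a chromatin organiser of lymphoid progenitors, had 13.8, 9.45, 9.57 and 7.19 CPM in aged LT-HSC, against 504, 517, 460 and 413 CPM in aged MPP. It fell by 5.56 ± 0.18 on the log2 scale (SE; adjusted p = 1.1e-17). All 4 aged LT-HSC libraries lay far below the aged MPP libraries. Ikzf1, the Ikaros factor, differed less, with 218 ± 29.0 CPM in aged LT-HSC and 479 ± 39.8 CPM in aged MPP (log2 difference -1.13). Depending on the setting, between 24 and 32 members were lower, and 27 were lower without aged MPP replicates 2 and 4.

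Markers of mature B cells were low in both populations and lower in aged LT-HSC, at 0.0037% to 0.00476% of counts there and 0.00855% to 0.0211% in aged MPP. Of 11 such markers, 9 were lower in aged LT-HSC and 2 were higher (Cr2 and Fcer2a), or 1 without aged LT-HSC replicate 1. T and natural killer cell markers took 0.00704% to 0.0115% of counts in aged LT-HSC and 0.00219% to 0.013% in aged MPP. In aged LT-HSC, Klrb1c alone made up 92.0% to 96.7% of that sum, whereas Cd28, Gzmb or Cd4 led in aged MPP. Of 6 tested, 1 was higher and 5 were lower (3 without aged LT-HSC replicate 1 or aged MPP replicate 4, and 2 without aged MPP replicates 2 and 4). The T cell marker Cd3e was at 0 in every library of both groups. The part of mature B cells in the lymphoid difference was not tested.

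Myeloid priming genes were also lower in aged LT-HSC, 31 of 38 tested, with none higher, 7 not called and a median log2 difference of -4.21. Csf2rb, the common receptor chain for IL-3, IL-5 and GM-CSF, had 19.4, 22.5, 19.5 and 15.6 CPM in aged LT-HSC, against 182, 112, 155 and 132 CPM in aged MPP. Csf2rb fell by 2.91 ± 0.17 on the log2 scale (SE; adjusted p = 9.7e-14), though it shares sequence with Csf2rb2 and reads may be split between them. Tyrobp, a signalling adaptor of myeloid cells, averaged 1.66 ± 0.509 CPM in aged LT-HSC and 61.9 ± 13.0 CPM in aged MPP. Nkg7, a granule protein, averaged 6.72 ± 2.22 CPM in aged LT-HSC and 245 ± 52.6 CPM in aged MPP. The log2 differences were -5.22 for Tyrobp, -5.18 for Nkg7 and -2.36 for Emb, a surface glycoprotein of progenitors. Those not called were Prtn3, Csf2ra, Csf2rb2, Cebpb, Cebpd, Lyz2 and Ctsc. Of 10 markers of mature granulocytes 5 were lower (2 without aged LT-HSC replicate 2 or aged MPP replicate 4) and none higher, and they summed to 0.000411% to 0.0011% of counts in aged LT-HSC and 0.00123% to 0.0319% in aged MPP. Monocyte and macrophage markers took 0.0292% to 0.0354% in aged LT-HSC and 0.0456% to 0.157% in aged MPP, highest in replicate 4, with 12 of 18 lower, or 6 without aged MPP replicate 4, and none higher. Mast cell, basophil and eosinophil markers, 6 of 6 lower, took 0.000231% to 0.00049% in aged LT-HSC and 0.0112% to 0.0574% in aged MPP. The part of these cells in the myeloid difference was not tested.

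Few erythroid genes were called: 19 of 22 tested were not, 1 was higher in aged LT-HSC and 2 were lower. The median log2 difference of the 22 was nonetheless -1.52, so a shared shift downward is not excluded by the few calls. The higher one was Car2, carbonic anhydrase, with 848 ± 62.5 CPM in aged LT-HSC and 374 ± 55.8 CPM in aged MPP (log2 difference 1.18 ± 0.11). Tfrc, the transferrin receptor that dividing cells also need, fell by 1.43. Epor, the erythropoietin receptor, was not called (log2 difference 1.66, adjusted p = 0.062), and neither were Gata1, Klf1 and Car1. DESeq2 called 9 members lower rather than 2, and 1 was lower without any 1 of aged LT-HSC replicates 2, 3 or 4 or aged MPP replicates 2 or 3. Erythroblast markers, 2 of 7 lower (1 on leaving out any 1 of several libraries) and none higher, took 0.00693% to 0.0097% of counts in aged LT-HSC and 0.00449% to 0.0347% in aged MPP. Hemoglobin genes were listed at 0 in every library of the series. That includes aged LT-HSC replicate 3, where Alas2 made up 51.2% of the erythroblast sum. The 0 therefore cannot be read as a lack of erythroid cells.

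Genes of DNA replication were lower in aged LT-HSC almost without exception: 59 of 60 tested S phase genes, with Chaf1b (0.01 on the log2 scale) not called. The median of the 60 was -1.99. Mcm3, a subunit of the replicative helicase, had 135, 122, 134 and 128 CPM in aged LT-HSC, against 460, 399, 459 and 446 CPM in aged MPP. The Mcm3 difference was -1.77 ± 0.12 on the log2 scale (SE; adjusted p = 5.4e-12), with each group within a narrow band. Mcm7, of the same helicase, averaged 62.7 ± 8.42 CPM in aged LT-HSC and 278 ± 22.5 CPM in aged MPP (log2 difference -2.15). Rfc2, of the clamp loader, averaged 80.3 ± 2.8 CPM in aged LT-HSC and 249 ± 12.1 CPM in aged MPP (log2 difference -1.63). Pola2, of the primase complex, fell by 1.60. The count of lower members was 58 or 59 under every alternative run.

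Genes of G2 and mitosis fell as widely, 69 of 70 tested with G2e3 not called, and by a larger median, -2.60. Cks1b, a small subunit of cyclin-dependent kinases, had 5.2, 2.34, 5.36 and 12.8 CPM in aged LT-HSC, against 55.0, 53.6, 59.7 and 52.5 CPM in aged MPP. Aged LT-HSC replicate 4 was the highest of its group in Cks1b and still far below every aged MPP library. The log2 difference of Cks1b was -3.11 ± 0.28 (SE; adjusted p = 1.1e-09). Mki67, the proliferation antigen Ki-67, had 169, 62, 77.7 and 275 CPM in aged LT-HSC, against 846, 1021, 1075 and 681 CPM in aged MPP (log2 difference -2.64 ± 0.36). Cdk1, the mitotic kinase, had 19.6, 3.56, 6.5 and 33.5 CPM in aged LT-HSC, against 112, 130, 119 and 104 CPM in aged MPP. Mki67 and Cdk1 again stood highest in replicate 4 and lowest in replicate 2 among the aged LT-HSC libraries, and the groups did not overlap. Mki67 and Cdk1 were picked out as well-known markers, outside the rule that chose the other genes. Mad2l1 of the spindle checkpoint fell by 1.94, and the condensin subunits Smc2 and Smc4 had log2 differences of -1.87 and -1.25.

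Promoters of G2 and mitosis genes are known to carry paired CCAAT boxes, bound by NF-Y, and the cell cycle homology element TTTGAA. Promoter windows of 250 bases before to 50 after the RefSeq start (GRCm38.p6) were found for 60 of the 70 genes. TTTGAA, searched on both strands, was in 41 of the 60 windows (68.3%), against 12.4% of tested genes and 18.1% of all 27025 genes with a window. CCAAT, also searched on both strands, was in 47 (78.3%), against 38.4% of tested genes and 37.9% of all genes, and 36 of the 60 windows held both. Neither motif contains the other, and a match describes the letters alone. The windows of 6 members of small p are printed here because the list moved together and the letters can be seen in place. Some windows, such as those matched by an older symbol, were not considered for printing. The printed windows run 5′ to 3′ on the gene's strand, with CCAAT and TTTGAA of either strand in capitals. They are Cks1b (chr3:89418242-89418541, minus strand), Mad2l1 (chr6:66534971-66535270, plus strand, no match), Smc2 (chr4:52438971-52439270, plus strand), Cenpa (chr5:30666636-30666935, plus strand), Bub3 (chr7:131560120-131560419, plus strand) and Ndc80 (chr17:71526808-71527107, minus strand).
Cks1b: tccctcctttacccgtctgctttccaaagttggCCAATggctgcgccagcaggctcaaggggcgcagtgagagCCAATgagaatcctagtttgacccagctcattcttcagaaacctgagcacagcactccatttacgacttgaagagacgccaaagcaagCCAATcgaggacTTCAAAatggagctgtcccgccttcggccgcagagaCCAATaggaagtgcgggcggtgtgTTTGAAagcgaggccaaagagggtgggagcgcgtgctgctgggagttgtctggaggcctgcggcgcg
Mad2l1: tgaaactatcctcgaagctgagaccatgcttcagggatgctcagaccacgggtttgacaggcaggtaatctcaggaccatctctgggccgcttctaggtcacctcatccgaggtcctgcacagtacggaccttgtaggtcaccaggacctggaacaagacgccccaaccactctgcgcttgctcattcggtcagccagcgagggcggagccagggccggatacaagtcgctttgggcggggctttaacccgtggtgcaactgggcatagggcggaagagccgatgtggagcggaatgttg
Smc2: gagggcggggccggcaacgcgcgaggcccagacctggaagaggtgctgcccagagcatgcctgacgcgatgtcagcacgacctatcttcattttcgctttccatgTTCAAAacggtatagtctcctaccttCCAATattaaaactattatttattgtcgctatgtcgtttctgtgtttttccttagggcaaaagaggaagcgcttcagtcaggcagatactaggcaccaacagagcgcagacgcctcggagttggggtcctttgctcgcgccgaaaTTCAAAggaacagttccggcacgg
Cenpa: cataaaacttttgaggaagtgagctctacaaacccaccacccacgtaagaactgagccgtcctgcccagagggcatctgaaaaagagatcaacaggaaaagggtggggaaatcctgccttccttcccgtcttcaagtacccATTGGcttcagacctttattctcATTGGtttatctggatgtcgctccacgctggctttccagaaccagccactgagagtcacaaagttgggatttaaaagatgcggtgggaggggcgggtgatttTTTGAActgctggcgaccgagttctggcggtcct
Bub3: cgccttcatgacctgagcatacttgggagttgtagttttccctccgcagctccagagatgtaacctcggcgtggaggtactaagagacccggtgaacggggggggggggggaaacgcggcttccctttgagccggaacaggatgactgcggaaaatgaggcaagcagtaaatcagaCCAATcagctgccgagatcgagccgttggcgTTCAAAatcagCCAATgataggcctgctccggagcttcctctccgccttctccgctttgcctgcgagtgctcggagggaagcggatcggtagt
Ndc80: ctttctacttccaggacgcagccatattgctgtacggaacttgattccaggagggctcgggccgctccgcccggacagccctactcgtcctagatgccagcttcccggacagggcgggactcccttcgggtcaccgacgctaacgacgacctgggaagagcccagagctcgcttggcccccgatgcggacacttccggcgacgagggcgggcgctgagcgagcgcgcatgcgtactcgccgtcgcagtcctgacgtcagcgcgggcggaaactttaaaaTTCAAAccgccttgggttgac

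The window of Mad2l1 held none of these letters, yet Mad2l1 was lower in aged LT-HSC, with 10.9, 9.05, 8.93 and 13.3 CPM there and 37.5, 38.7, 49.3 and 36 CPM in aged MPP. Cenpa, the centromeric histone, had 14.8, 8.03, 11.0 and 24.1 CPM in aged LT-HSC, against 58.3, 85.1, 48.7 and 57.6 CPM in aged MPP, a log2 difference of -2.11 ± 0.25 (SE). Ndc80, of the kinetochore, had 3.51, 1.63, 3.19 and 5.73 CPM in aged LT-HSC, against 26.0, 20.0, 28.8 and 20.8 CPM in aged MPP, a log2 difference of -2.77 ± 0.35. Bub3, a checkpoint protein, differed less, by -0.86 ± 0.11, with 60.8 ± 10.3 CPM in aged LT-HSC and 110 ± 12.1 CPM in aged MPP. No such count is given for the S phase list, of which 45 of 60 genes had a window, a smaller share than in the lists counted here.

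Replication-dependent histone genes, transcribed in S phase, were lower in aged LT-HSC for 40 of 41 tested, with Hist1h3e not called and a median of -3.38. Hist1h4d averaged 10.3 ± 3.16 CPM in aged LT-HSC and 47.0 ± 7.46 CPM in aged MPP (log2 difference -2.18). Hist1h2ak had a log2 difference of -4.59 and Hist4h4 one of -3.38. Hist1h3c had 3 counts over the 4 aged LT-HSC libraries, all in replicate 4, and 168 counts in aged MPP. The ratio of aged MPP to aged LT-HSC for Hist1h3c was 45.3, with a 95% counting interval of 15.2 to 222. Histone genes share sequence, so reads may be divided among copies, and their RNAs mostly lack poly(A) tails.

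The cyclin-dependent kinases, cyclins and their inhibitors were divided. Of 31 tested, 19 were lower in aged LT-HSC, 4 were higher and 8 were not called. Cdk6, the G1 kinase that sets how fast stem cells leave quiescence, had 204, 204, 195 and 252 CPM in aged LT-HSC, against 909, 881, 751 and 788 CPM in aged MPP. Its log2 difference was -1.96 ± 0.11 (SE; adjusted p = 5.9e-14). Cdkn1c, the inhibitor p57 that keeps stem cells out of cycle, had 16.9, 22.7, 23.7 and 22.6 CPM in aged LT-HSC, against 1.38, 1.69, 0.937 and 0.883 CPM in aged MPP. Every aged LT-HSC library was above every aged MPP library in Cdkn1c, and it was higher by 4.11 ± 0.25 on the log2 scale (adjusted p = 1.6e-13). Rbl2, the pocket protein p130 of quiescent cells, was higher by 0.94, Ccnd2 by 0.36 and E2f5 by 1.23. Tfdp1, the E2F partner, fell by 1.38. Cdkn1a, the p53 target p21, was not called (log2 difference -0.34, adjusted p = 0.24). Scaled by library totals alone, 7 members were higher rather than 4.

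Genes that make nucleotides and one-carbon units were lower in aged LT-HSC for 27 of 35 tested and higher for 4, among them Mthfd2l, Mat2a and Adss, with a median of -0.87. Umps, which completes pyrimidine synthesis, had 29.4, 29.7, 33.4 and 34.3 CPM in aged LT-HSC, against 128, 114, 132 and 115 CPM in aged MPP. Umps fell by 1.95 ± 0.10 on the log2 scale (SE; adjusted p = 8.1e-15), and each group kept to a narrow range. Impdh1, the guanine nucleotide enzyme, had a log2 difference of -1.47, Phgdh of serine synthesis one of -1.51 and the mitochondrial serine enzyme Shmt2 one of -1.57.

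Subunits of the respiratory chain moved together by less. Of 76 tested, 65 were lower in aged LT-HSC, 1 was higher (Cox7a2l, by 0.25 on the log2 scale) and 10 were not called, with a median of -0.81. Ndufa4 had 81.3, 86.6, 81.2 and 79.0 CPM in aged LT-HSC, against 254, 269, 253 and 338 CPM in aged MPP. All aged MPP libraries were above all aged LT-HSC libraries in Ndufa4, and aged MPP replicate 4 was the highest (log2 difference -1.76 ± 0.10). Log2 differences were -1.16 for Sdhb of complex II, -1.25 for Cox6a1 of complex IV and -0.76 for Atp5b of the ATP synthase. Without aged MPP replicates 2 and 4, 53 members were lower.

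Glycolysis genes did not share a direction, with 11 of 25 higher in aged LT-HSC, 10 lower, 4 not called and a median of 0.20. Slc2a3, the glucose transporter GLUT3, had 272, 285, 307 and 293 CPM in aged LT-HSC, against 84.9, 84.2, 82.9 and 97.6 CPM in aged MPP (log2 difference 1.73 ± 0.10). Ldhb, the lactate dehydrogenase subunit that favours pyruvate, averaged 60.6 ± 4.03 CPM in aged LT-HSC and 15.8 ± 3.3 CPM in aged MPP (log2 difference 1.94). Of the pyruvate dehydrogenase kinases, which hold pyruvate back from mitochondrial oxidation, Pdk4 was higher by 8.16, Pdk2 by 0.68 and Pdk3 by 0.67, and Pdk1 was lower, at -0.47. Several enzymes of the main route were lower, with Pgam1 at -1.71, Pgk1 at -1.14 and Gpi1 at -0.72. Hk2 was higher by 0.73 and Hk3 lower, at -1.57, while Ldha was not called (0.20, adjusted p = 0.12).

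Immediate early genes, the first to respond to growth factors or handling, gave 22 of 44 higher in aged LT-HSC, 5 lower (Ier5, Dusp6, Zfp36l1, Tnfaip3 and Ccrn4l) and 17 not called, with a median of 0.44. Without aged MPP replicate 4, or without replicates 2 and 4, 3 were lower rather than 5. Nr4a2, an orphan nuclear receptor, had 302, 403, 281 and 354 CPM in aged LT-HSC, against 28.7, 49.9, 36 and 52.0 CPM in aged MPP. The groups were well separated for Nr4a2, and it was higher by 3.01 ± 0.22 on the log2 scale (SE; adjusted p = 1.9e-10). Dusp4, a MAP kinase phosphatase, was higher by 2.68, Maff, a small Maf protein, by 2.08 and Per1, which is also a clock gene, by 1.02. Egr1 averaged 2717 ± 537 CPM in aged LT-HSC and 887 ± 96.8 CPM in aged MPP (log2 difference 1.61 ± 0.26). Fos (log2 difference 0.21, adjusted p = 0.51) and Jun (0.05, adjusted p = 0.89) were not called, although Fos averaged 1892 ± 136 CPM in aged LT-HSC and 1638 ± 181 CPM in aged MPP. The cAMP response element TGACGTCA was in 3 of the 37 promoter windows found for this list (8.11%), against 3.13% of tested genes with a window and 1.88% of all genes, on both strands. It was in 36 of 1657 windows of genes at least 2-fold higher in aged LT-HSC (2.17%) and in 29 of 1262 of those lower (2.3%). A count of 3 windows is small.

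**Figure D3:**
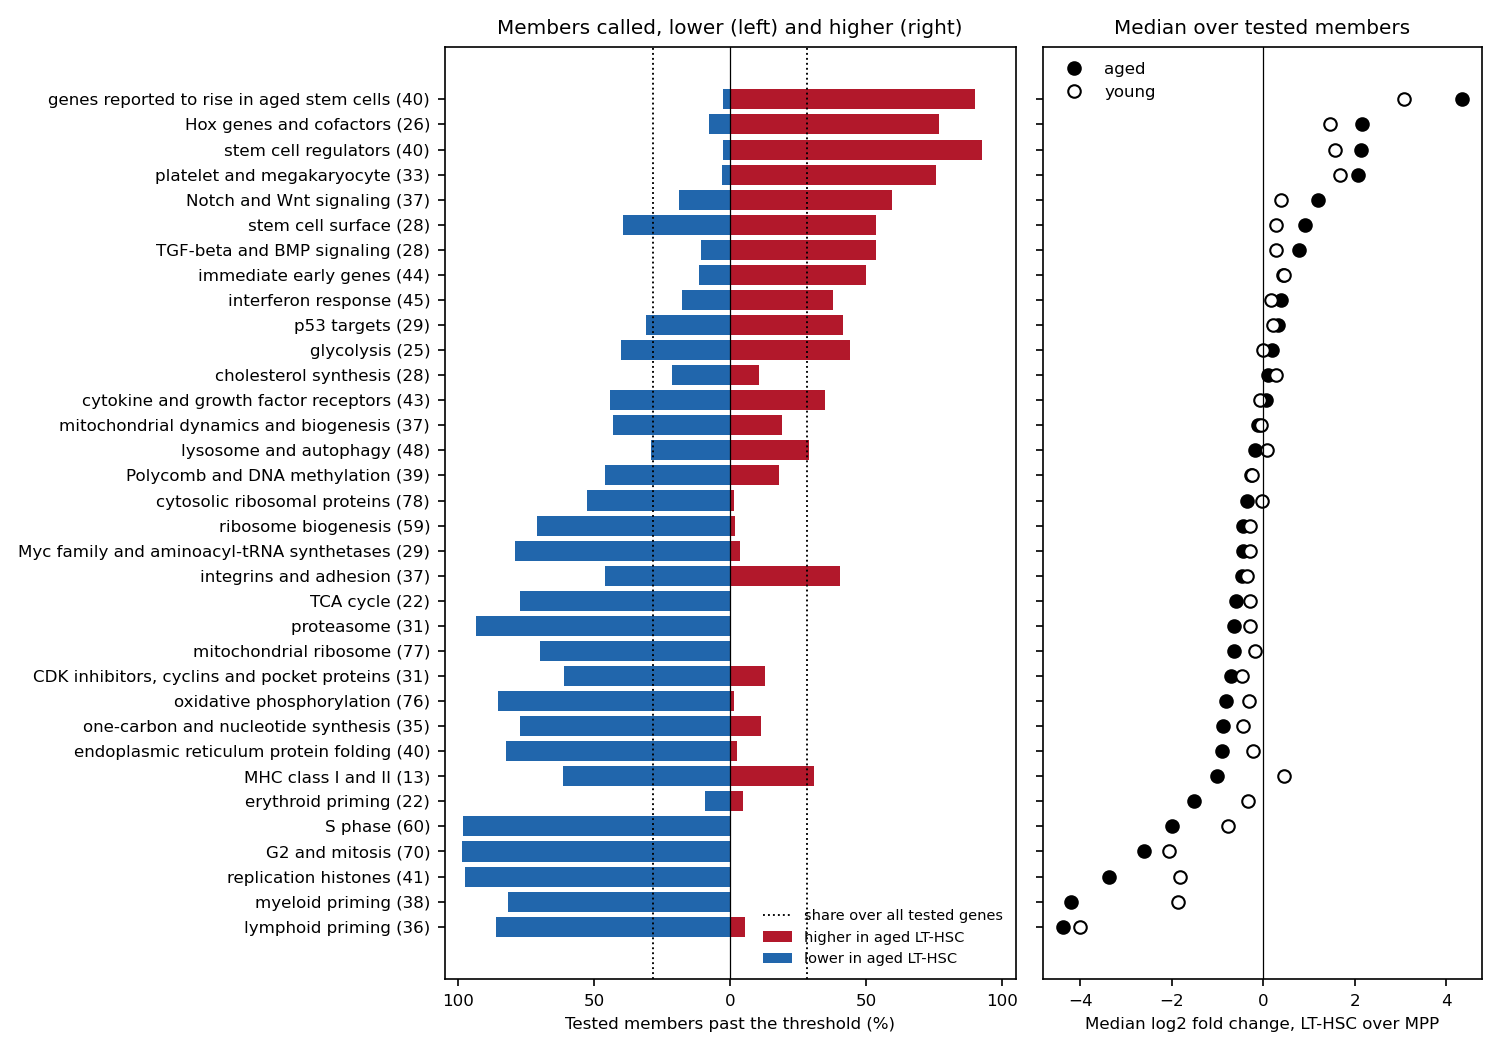
Left, the percent of tested members of each gene list (size in brackets) that were lower (bars to the left) or higher (bars to the right) in aged LT-HSC, with dotted lines at the shares over all tested genes. Right, the median log2 fold change of LT-HSC over MPP of each list in aged (filled) and young mice (open), which in aged mice runs from 4.34 for genes known to be higher in old stem cells to -4.38 for lymphoid genes.

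Cytokine and growth factor receptors were split, 15 of 43 higher in aged LT-HSC, 19 lower and 9 not called, with a median of 0.05. The higher ones included Tek, the angiopoietin receptor Tie2 of niche contact (log2 difference 4.51), Ghr, the growth hormone receptor (5.68), Fgfr3 (3.77) and Igf1r (1.06). The lower ones included the macrophage receptor Csf1r (-5.22), Il1r1 (-2.49), Il6ra (-1.98) and Csf3r (-0.34). Pdgfrb, the platelet-derived growth factor receptor, had 34.7, 29.1, 37.6 and 51.7 CPM in aged LT-HSC, against 293, 283, 245 and 221 CPM in aged MPP. Pdgfrb fell by 2.77 ± 0.14 on the log2 scale (SE; adjusted p = 4.4e-15), with no overlap. The signalling chain Il6st and the interferon receptor chain Ifnar1 were not called.

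The TGF-beta family, known to hold stem cells in quiescence, had 15 of 28 members higher in aged LT-HSC, 3 lower and 10 not called, with a median of 0.78. The ligand and its signalling receptor were among the lower ones, Tgfb1 at -1.44 ± 0.09 and Tgfbr2 at -0.71 on the log2 scale, together with Acvrl1. Co-receptors were higher. Eng, endoglin, had 556, 517, 532 and 505 CPM in aged LT-HSC, against 210, 200, 164 and 160 CPM in aged MPP (log2 difference 1.52 ± 0.09). Tgfbr3, betaglycan, had 362, 340, 324 and 325 CPM in aged LT-HSC, against 36, 29.9, 13.9 and 20.7 CPM in aged MPP (log2 difference 3.75 ± 0.22). Both co-receptors lay above the aged MPP range in all 4 aged LT-HSC libraries. Ski, a repressor of SMAD signalling, was higher by 1.49.

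Genes of protein folding and export in the endoplasmic reticulum were lower in aged LT-HSC for 33 of 40 tested, with 1 higher (Selm), 6 not called and a median of -0.90. Sdf2l1, a chaperone partner in the endoplasmic reticulum, had 3.63, 3.15, 3.83 and 4.15 CPM in aged LT-HSC, against 59.0, 55.0, 50.3 and 121 CPM in aged MPP. Aged MPP replicate 4 was highest, and the lowest aged MPP library was still far above aged LT-HSC (log2 difference -4.27 ± 0.29, adjusted p = 5e-12). Log2 differences were -1.49 for P4hb, protein disulfide isomerase, -1.15 for Spcs3 of the signal peptidase and -0.82 for Sec61a1 of the translocon. Xbp1, the transcription factor of the unfolded protein response and of plasma cells, had 73.4, 82.2, 70.9 and 80.1 CPM in aged LT-HSC, against 141, 236, 136 and 266 CPM in aged MPP. The aged MPP values of Xbp1 fell into a lower pair, replicates 1 and 3, and a higher pair, replicates 2 and 4. The Xbp1 difference was -1.34 ± 0.17 with all libraries and -0.87 without aged MPP replicates 2 and 4. With those 2 libraries left out, 32 members of the list were lower.

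Plasma cell markers moved with this list. They summed to 0.01% to 0.0127% of counts in aged LT-HSC, against 0.256%, 0.383%, 0.209% and 0.939% in aged MPP replicates 1 to 4. Of 15 markers listed, 9 were tested and all 9 were lower in aged LT-HSC, with Tnfrsf17 at 0 in all aged LT-HSC libraries. Jchain, the joining chain of secreted antibodies, made up 81.2% to 90.3% of the sum in aged MPP, with 3.39, 20.2, 1.4 and 2.07 CPM in aged LT-HSC, against 2324, 3289, 1794 and 9061 CPM in aged MPP. Jchain was singled out after its values were seen. Xbp1 is itself on the marker list, and the part of plasma cells in the result for the endoplasmic reticulum was not tested.

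Class I and class II antigen presentation genes went opposite ways. Of 13 tested, the class I genes H2-K1, H2-D1, H2-Q4 and H2-T23 were higher in aged LT-HSC, the class II genes H2-Aa, H2-Ab1, H2-Eb1, H2-DMa, H2-DMb1, H2-DMb2, Cd74 and Ciita were lower, and B2m was not called. H2-T23 had 258, 294, 304 and 318 CPM in aged LT-HSC, against 170, 195, 152 and 227 CPM in aged MPP (log2 difference 0.66 ± 0.09). Without aged LT-HSC replicate 1, or without aged MPP replicate 3, 2 class I genes were higher rather than 4. H2-Ab1 had 38.0, 59.8, 48.7 and 41.5 CPM in aged LT-HSC, against 151, 228, 221 and 169 CPM in aged MPP. H2-Ab1 fell by 2.03 ± 0.28 on the log2 scale (SE; adjusted p = 2.7e-06), and its groups did not overlap. Cd74, the invariant chain, averaged 155 ± 51.4 CPM in aged LT-HSC and 853 ± 251 CPM in aged MPP (log2 difference -2.46 ± 0.43). H2-DMa had a log2 difference of -1.02 and H2-DMb2 one of -3.44. Class II genes are used by B cells and dendritic cells, whose marker sums were also higher in aged MPP. Dendritic cell markers (4 of 8 lower, 1 higher) took 0.0128% to 0.0175% of counts in aged LT-HSC and 0.0491% to 0.0647% in aged MPP. In aged MPP, 78.4% to 84.7% of that sum was Flt3, the progenitor receptor named above. In aged LT-HSC, Clec9a led with 51.8% to 74.5%. The dendritic sum in aged MPP is thus mostly 1 gene that progenitors use. The part of B cells and dendritic cells in the result was not tested.

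**Figure D4:**
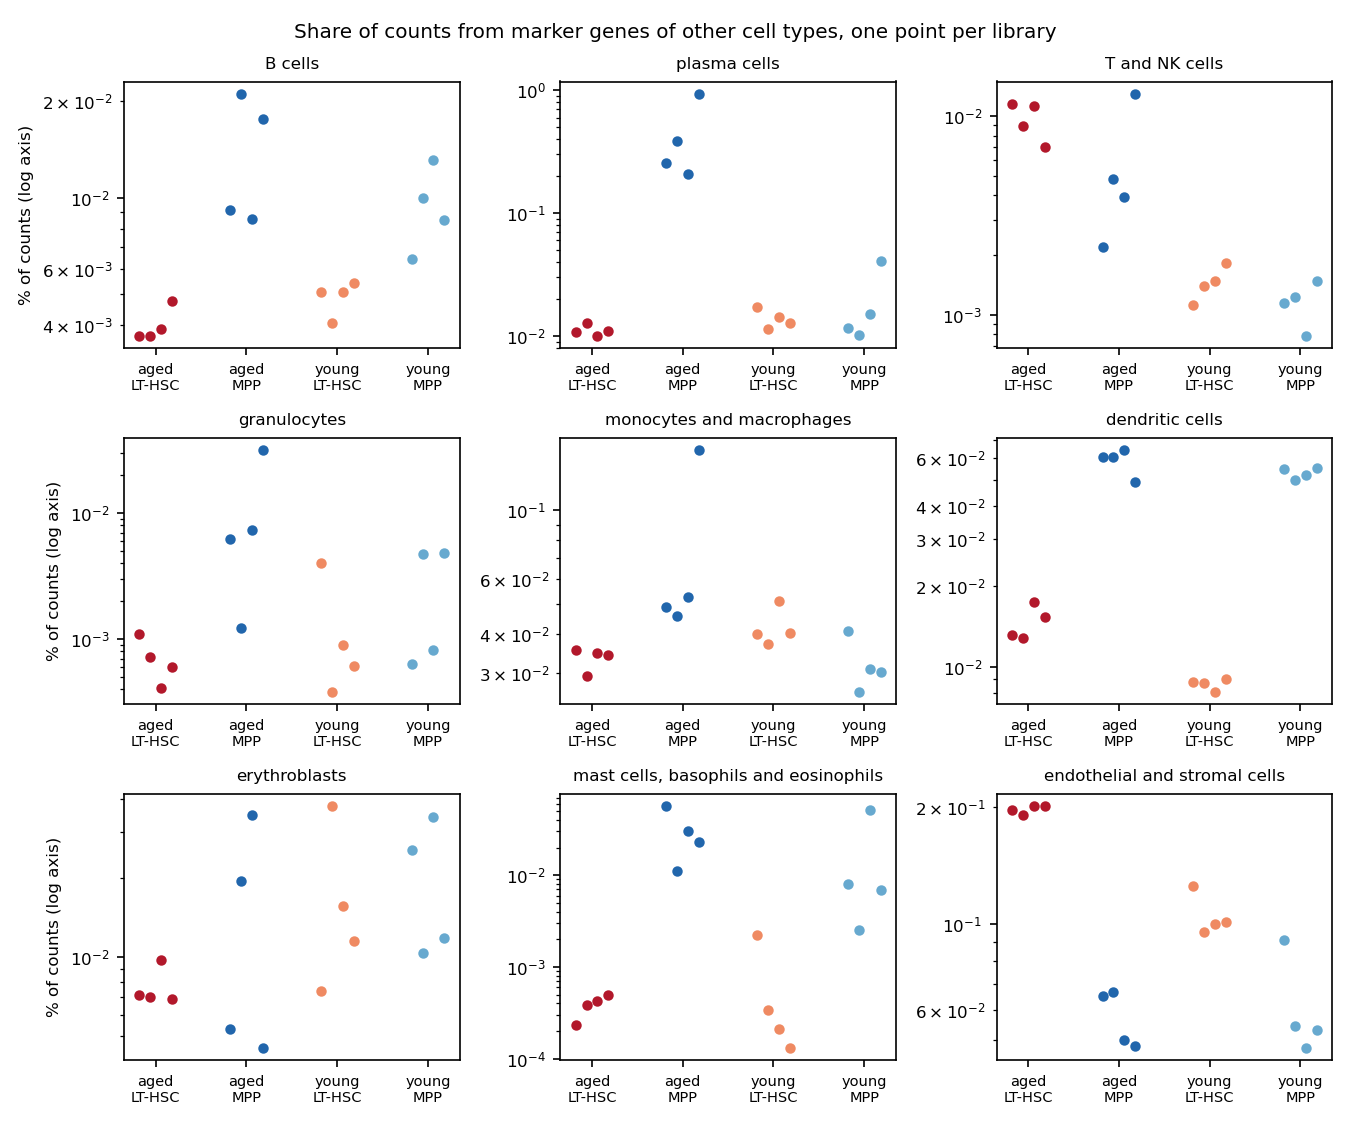
Summed percent of counts (log axes) of marker lists of 9 other cell types, 1 point per library, in LT-HSC and MPP of aged and then of young mice. Plasma cell markers reach 0.939% in aged MPP replicate 4 and stay between 0.01% and 0.0127% in aged LT-HSC, while endothelial and stromal markers are higher in aged LT-HSC, where Vwf makes up 60.2% to 64.9% of them.

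Polycomb and DNA methylation genes were lower in aged LT-HSC for 18 of 39 tested, higher for 7 and not called for 14, with a median of -0.26. The pair of methyltransferases in Polycomb complexes went opposite ways. Ezh1, which resting cells use, had 248, 192, 219 and 173 CPM in aged LT-HSC, against 80.2, 78.0, 90.2 and 69.8 CPM in aged MPP (log2 difference 1.39 ± 0.11). Ezh2, which dividing cells use, had 26.6, 28.1, 25.3 and 41.3 CPM in aged LT-HSC, against 107, 107, 120 and 110 CPM in aged MPP (log2 difference -1.87 ± 0.16). Each of the pair was separated between the groups without overlap. Among the chromobox subunits, Cbx6 was higher by 1.40 and Cbx7 by 0.99, and Cbx2 was lower, at -1.67.

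Other lists are given as counts beside the shares of all genes. Of 78 ribosomal protein genes 1 was higher and 41 were lower in aged LT-HSC, but 17 were lower without aged MPP replicates 2 and 4, 25 without aged MPP replicate 4 and 26 without aged LT-HSC replicate 1. Ribosome biogenesis genes were lower for 42 of 59 and higher for 1. The E-box CACGTG was in 12 of the 54 promoter windows of that list (22.2%), against 9.97% of tested genes with a window and 7.24% of all genes. It was not particular to that list, being in 9 of the 37 windows of immediate early genes (24.3%), which were more often higher than lower. Mitochondrial ribosome genes were lower for 54 of 77, proteasome genes for 29 of 31 and citric acid cycle genes for 17 of 22, with none higher in these 3 lists. Genes of Myc and the tRNA synthetases were lower for 23 of 29, with Mycn higher. Hox genes and their cofactors were higher for 20 of 26 and lower for 2, with a median of 2.15. Genes known to be higher in old stem cells were higher for 36 of 40 and lower for 1, Dhrs3, with a median of 4.34. Interferon genes were higher for 17 of 45 and lower for 8, Notch and Wnt genes higher for 22 of 37 and lower for 7 (4 without aged LT-HSC replicate 2), and p53 targets higher for 12 of 29 and lower for 9. Integrins were higher for 15 of 37 and lower for 17, lysosome genes 14 each way of 48 (9 lower without aged MPP replicate 4), genes of mitochondrial dynamics 7 higher (4 without aged MPP replicates 2 and 4) and 16 lower of 37, and cholesterol genes 3 higher and 6 lower of 28.

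The aged ST-HSC libraries, which did not enter the comparison, were used to place its genes along the hierarchy. The aged ST-HSC mean lay between those of aged LT-HSC and aged MPP for 85.7% of the genes higher in aged LT-HSC and 84.9% of the genes lower, against 63.8% of all tested genes. Called genes were selected for a wide gap between the groups, which by itself puts another mean between them more often. The 63.8% is therefore not a like background for called genes. The aged ST-HSC mean lay between for 59 of 60 S phase genes, 69 of 70 G2 and mitosis genes and all 41 histone genes. For stem cell regulators this held for 34 of 40. For lymphoid genes it held for 24 of 36 and for myeloid genes for 26 of 38, smaller shares than the 84.9% of lower genes. How far between differed by gene. Mean Vwf was 31.7 CPM in aged ST-HSC, near the aged MPP mean of 10.7 CPM. Mean Gpr183 was 16.3 CPM in aged ST-HSC, which was not between but slightly below the aged MPP mean of 18.6 CPM. Mean Flt3 was 379 CPM and mean Cd34 was 673 CPM in aged ST-HSC, also nearer to the aged MPP means of 496 and 817 CPM. Mean Mcm3 was 253 CPM, between 130 CPM in aged LT-HSC and 441 CPM in aged MPP.

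The same contrast was fitted in the young mice, whose libraries are separate from the aged ones. There 5287 genes (37.2%) were called, 2683 higher in young LT-HSC (18.9%) and 2604 lower (18.3%). Of the genes called in aged mice, 7504 (93.0%) had the same sign in young mice, against 80.6% of all tested genes. Across genes, the log2 differences at the 2 ages had a Pearson r of 0.795, a description over genes that are not independent. Their median size was 0.55 in aged and 0.35 in young mice. A test of the difference between ages itself called 1411 genes (9.93%), 717 with a more positive difference in aged mice (5.05%) and 694 with a more negative one (4.89%). In 1287 of these genes (91.2%) the LT-HSC to MPP difference was larger in size in aged mice, as it was in 71.2% of all tested genes. Signs at the 2 ages were opposite for 270 of the 1411, and 38 of those were called at both ages. Without aged MPP replicates 2 and 4 the test called 841 genes.

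**Figure D5:**
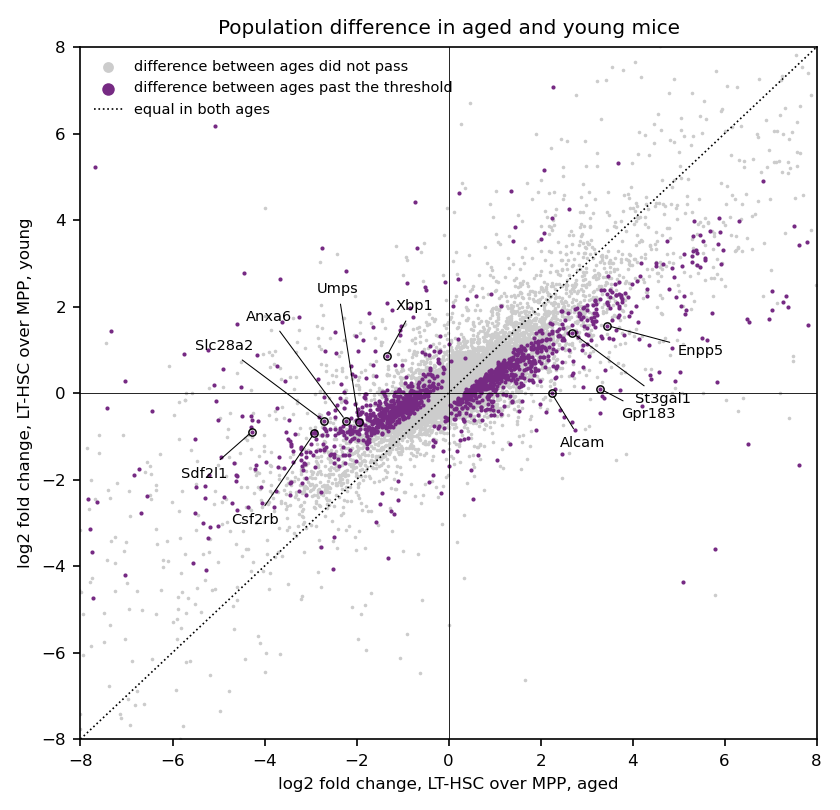
Log2 fold change of LT-HSC over MPP in aged mice (horizontal) and in young mice (vertical) for the tested genes, with genes past the threshold for the difference between ages in purple and a dotted line where the ages are equal. Both axes end at 8 on either side and leave out 152 genes. Gpr183 and Alcam lie well above 0 in aged mice and near 0 in young mice.

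Gpr183 and Alcam led the genes with a more positive difference in aged mice. Gpr183 (chromosome 14, 121952331 to 121965193), an oxysterol receptor of cell migration, had 221, 176, 197 and 137 CPM in aged LT-HSC, against 15.8, 19.6, 21.4 and 17.7 CPM in aged MPP. It averaged 16.7 CPM in young LT-HSC and 15.6 CPM in young MPP, and its difference between ages was 3.19 ± 0.23 on the log2 scale (SE; adjusted p = 1.5e-09). Alcam, the adhesion molecule CD166, had 404, 341, 345 and 314 CPM in aged LT-HSC, against 74.6, 61.2, 86.2 and 75.4 CPM in aged MPP. It averaged 76.7 CPM in young LT-HSC and 76.8 CPM in young MPP, with a difference between ages of 2.24 ± 0.18 (adjusted p = 5.9e-09). In both genes the aged LT-HSC libraries stood above every aged MPP library, while the LT-HSC and MPP means of young mice differed by less than the SD of either group. Selp averaged 9.61 CPM in young LT-HSC and 13.2 CPM in young MPP, with a difference between ages of 3.74 (adjusted p = 0.00013).

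Other genes differed at both ages and by more in the aged mice. St3gal1, a sialyltransferase, was higher in LT-HSC by 2.69 in aged and 1.40 in young mice, and Enpp5, an ectoenzyme, by 3.45 in aged and 1.56 in young mice. Mecom was higher by 3.18 in aged and 2.13 in young mice, Itga6 by 2.00 and 1.02, and Vwf by 6.83 and 4.90. Mean Itga6 was 574 CPM in aged LT-HSC and 231 CPM in young LT-HSC, against 144 CPM in aged MPP and 114 CPM in young MPP. Mean Vwf was 1230 CPM in aged LT-HSC and 344 CPM in young LT-HSC, and about level in MPP, at a mean of 10.7 CPM in aged MPP and of 11.6 CPM in young MPP. Downward, Slc28a2, a nucleoside transporter, was at -2.71 in aged and -0.65 in young mice, and Anxa6, an annexin, at -2.23 and -0.64. Csf2rb was at -2.91 in aged and -0.92 in young mice, and Flt3 at -5.28 and -4.08.

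By list, 22 of 40 stem cell regulators had a more positive difference in aged mice and 1 a more negative one. For S phase genes 31 of 60 had a more negative difference and none a more positive one, and their median was -1.99 in aged and -0.77 in young mice. Mean Mcm3 was 130 CPM in aged LT-HSC and 327 CPM in young LT-HSC, against 441 CPM in aged MPP and 492 CPM in young MPP. Genes of G2 and mitosis gave fewer calls, with 1 of 70 more positive and 1 more negative, all 70 lower in young LT-HSC, and medians of -2.60 in aged and -2.05 in young mice. These counts depended on the setting. Without aged LT-HSC replicate 4, the highest of its group in Mki67 and Cdk1, 16 of the 70 were more negative in aged mice. Under limma-voom 6 were more negative, and 2 with only the groups compared. The more positive member was no longer called under several alternatives. Cdkn1c was higher in LT-HSC by nearly the same amount at both ages, 4.11 in aged and 4.06 in young mice, and Cdk6 lower by nearly the same amount, -1.96 and -2.11. For one-carbon and nucleotide genes 13 of 35 were more negative in aged mice and 1 more positive. Platelet genes were more positive for 12 of 33 and more negative for 1, and stem cell surface genes for 11 and 4 of 28.

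Endoplasmic reticulum and class II genes also differed in their contrast between the ages. In the endoplasmic reticulum list 26 of 40 had a more negative difference in aged mice and none a more positive one, or 19 of 40 without aged MPP replicates 2 and 4. In young mice 3 of that list were higher in LT-HSC, 11 were lower and the median was -0.22. Sdf2l1 averaged 3.69 CPM in aged LT-HSC and 71.4 CPM in aged MPP, and 19.9 CPM in young LT-HSC and 36.9 CPM in young MPP, with a difference between ages of -3.38. Xbp1 changed sign: it was lower in aged LT-HSC than in aged MPP and higher by 0.86 in young LT-HSC than in young MPP, with a difference between ages of -2.20 ± 0.24. Of the 13 antigen presentation genes, 7 had a more negative difference in aged mice, or 6 without aged MPP replicates 2 and 4. Mean Cd74 was 155 CPM in aged LT-HSC and 853 CPM in aged MPP, and 120 CPM in young LT-HSC and 45.5 CPM in young MPP, a difference between ages of -3.86 (adjusted p = 0.00041). Plasma cell markers, which took 0.209% to 0.939% of counts in aged MPP, took 0.0101% to 0.0404% in young MPP, and their part in these differences was not tested.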

How the data were processed

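Bulk RNA-seq was measured in 24 libraries of sorted bone marrow populations, 6 groups of 4, grouped by their titles. The deposited table holds raw read counts per gene, which per the submitters' processing notes came from reads trimmed with Trim Galore, aligned to mm10 with HISAT2 and counted with featureCounts. Tool versions, gene annotation and strand option were not given in the sources used here. Per the labels' protocols, cDNA was primed with not-so-random primers, the second strand made with Klenow and libraries made with Nextera XT. No strand marking and no molecular identifiers are described, so overlapping or antisense genes may share reads, and counts are of reads. No count was set aside as belonging to no gene, and 27 symbols that a spreadsheet had turned into dates were not named.

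Of 24421 genes, 14205 passed edgeR's filterByExpr and held 99.9% of counts. R 4.3.3 with edgeR 4.0.16 fitted 6 group means over all 24 libraries (trimmed mean of M-values scaling, robust quasi-likelihood F test, 18 residual degrees of freedom among libraries), and Benjamini-Hochberg adjustment ran over all tested genes with a threshold of 0.05. SE is the absolute log2 fold change divided by the square root of F. The contrasts were aged LT-HSC minus aged MPP, young LT-HSC minus young MPP, and the first minus the second. A gene with no count in a group is given a lower bound against a floor of 3 counts over the group, and one with 1 to 3 counts an exact 95% interval of the ratio. On simulated counts for 13373 genes in the aged contrast, the test called 67 of 100 genes changed by 1 and 91 of 100 changed by 2 on the log2 scale, with 3 false calls among 161. Only these genes were changed, in equal number up and down, and all other groups were alike. In the data 56.8% of genes were called, so the simulation does not give the error rate of those calls.

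Named genes were the sort gate genes, the 10 largest called differences each way with a mean of at least 10 CPM and no overlap, the 4 members of smallest p of each described list, and the 6 genes each way of smallest p for the difference between ages. Other named genes (exceptions of a list, well-known members, markers) were chosen after their values were seen, and a few genes that met the rule are not reported here. The 35 gene lists and 9 marker lists, which of them are described, and the comparison itself were chosen with earlier results of these data known, so they describe and are not independent support. Alternatives were DESeq2 1.42.0, limma 3.58.1 with voom, DESeq2's size factors in edgeR, library totals alone, no count filter, only the groups compared, a replicate block, ribosomal RNA and hemoglobin genes left out, libraries thinned to 7307151 counts, each library left out, and, chosen after seeing the data, aged MPP replicates 2 and 4 left out. RefSeq promoter windows (GRCm38.p6) matched 11191 of the tested genes (78.8%), 544 of them by an older symbol, and gene coordinates are from RefSeq, GRCm38.p6. More motifs were searched than are given here, and not every motif is given for every list.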

Additional observations from a re-analysis of the deposited data

Results flagged for a closer look

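Among 182 groups of 4 libraries for the named genes, 21 had 1 library whose gap to its nearest neighbour exceeded 0.829 of the range of the group. For normally distributed values chance gives about 1 in 20. A group with counts in 1 library alone always passes, as for Dntt, Hist1h3c, Sdpr, Sfrp1 and Ccbe1 below, so the 21 cannot be set against that rate. In aged LT-HSC these were replicate 3 for Dntt (0.51 CPM, others 0) and replicate 4 for Hist1h3c (0.366 CPM, others 0) and Cdk6 (252 CPM, next 204 CPM). Replicate 1 of aged LT-HSC was apart for Cdkn1c (16.9 CPM, next 22.6 CPM) and Impdh1 (82.3 CPM, next 74.5 CPM), and replicate 2 for Ldhb (54.6 CPM, next 62.3 CPM).

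In aged MPP, replicate 4 was apart and highest for 6 genes of metabolism and secretion: Shmt2 (142 CPM, next 121 CPM), Atp5b (610 CPM, next 571 CPM), Cox6a1 (167 CPM, next 121 CPM), Slc2a3 (97.6 CPM, next 84.9 CPM), Sdf2l1 (121 CPM, next 59.0 CPM) and Spcs3 (235 CPM, next 174 CPM). Replicate 1 of aged MPP was apart for Sdpr (0.494 CPM, others 0), Cd34 (887 CPM, next 801 CPM) and Emb (201 CPM, next 167 CPM). Replicate 2 was apart for Sfrp1 and Ccbe1 (0.0889 CPM each, others 0), Meg3 (0.178 CPM, next 0.0987 CPM) and Rfc2 (231 CPM, next 254 CPM), and replicate 3 for Mecom (61.5 CPM, next 49.3 CPM) and Smc4 (159 CPM, next 127 CPM).

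For 59 named genes the LT-HSC to MPP difference itself differed between aged and young mice (edgeR's quasi-likelihood test of the difference, adjusted p under 0.05), given here as the aged minus the young log2 difference. Stem cell and platelet genes had positive values: Itga6 0.98, Mecom 1.05, Trim47 2.03, Fhl1 1.79, Mmrn1 1.18, Vwf 1.94 and Zfpm1 0.64, with Car2 at 0.63. The progenitor genes Flt3 (-1.2), Cd34 (-1.0), Satb1 (-1.64), Csf2rb (-2.0), Tyrobp (-1.86) and Nkg7 (-2.08) had negative ones. Cd48 (-3.21) was negative too, but it is a gene of the sort gate and not a finding. Its value rests on levels near 0, at 0.178 ± 0.241 CPM in aged LT-HSC and 1.25 ± 1.55 CPM in young LT-HSC (SD). Without young LT-HSC replicate 3, Cd48 was at -1.99 (adjusted p = 0.066), and with limma-voom Cd48 and Tyrobp missed the threshold (adjusted p 0.08 and 0.11).

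Proliferation genes were negative apart from Rbl2 (0.62): Rfc2 -0.95, Mcm3 -1.18, Pola2 -0.95, Mcm7 -1.39, Cks1b -1.48, Hist4h4 -2.04, Hist1h3c -3.14, Hist1h2ak -2.66 and Tfdp1 -0.82. The histone values are not stable: Hist1h3c missed the threshold under 14 alternatives and Hist1h2ak under 12, and without young LT-HSC replicate 4 Hist1h2ak was at -1.6 (adjusted p = 0.15) and Hist4h4 at -1.58 (adjusted p = 0.082). The metabolic genes Umps (-1.28), Phgdh (-0.87), Shmt2 (-0.95), Ndufa4 (-0.49), Sdhb (-0.61), Cox6a1 (-0.77) and Pgam1 (-0.89) were negative too, and Slc2a3 (0.85) and Ldhb (0.77) positive. Ndufa4 and Sdhb missed the threshold without aged MPP replicates 2 and 4 (adjusted p 0.12 and 0.097). Of signalling genes, Nr4a2 (1.09), Pdgfrb (0.78), Eng (0.51) and Ski (0.6) were positive and Tgfb1 (-0.5) negative, with Nr4a2 missing the threshold under 9 alternatives, Ski under 6 and Tgfb1 under 1. For antigen presentation and secretion the values were -2.41 for H2-Ab1, -2.32 for H2-DMb2, -3.38 for Sdf2l1, -0.63 for Sec61a1, -0.97 for P4hb, -0.81 for Spcs3 and -2.2 for Xbp1. H2-DMb2 passed narrowly (adjusted p = 0.046) and missed the threshold under 17 alternatives, at -1.8 (adjusted p = 0.14) without young LT-HSC replicate 2. Of Polycomb genes, Cbx6 (0.44) and Ezh1 (0.95) were positive and Cbx2 (-0.83) negative, and Cbx6 missed the threshold under 13 alternatives, at 0.37 (adjusted p = 0.14) without aged MPP replicates 2 and 4. Gpr183 (3.19), Alcam (2.24), St3gal1 (1.29), Enpp5 (1.88), Slc28a2 (-2.06) and Anxa6 (-1.6) complete the genes of smallest p.

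Where a group is at or near 0 the value rests on few counts: Adgrg2 at 6.74, Osmr at 9.56, Ccbe1 at 10.5 and Mpo at -9.29. The values of Osmr, Ccbe1 and Mpo also depended on 1 young library. Mpo missed the threshold under 10 alternatives, Adgrg2 under 7, Osmr under 4 and Ccbe1 under 1. Mean Mpo was 172 ± 340 CPM in young LT-HSC, and mean Ccbe1 was 1.06 ± 2.12 CPM in young MPP (SD). Without young LT-HSC replicate 1, Mpo was at -2.79 (adjusted p = 0.44). Without young MPP replicate 1, Ccbe1 was at 4.13 (adjusted p = 0.98) and Osmr at 6.6 (adjusted p = 1).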

How the results depend on the processing

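Across all alternatives the aged comparison called 6890 genes (aged MPP replicates 2 and 4 left out) to 8251 (no count filter), against 8068, and no named gene reversed. DESeq2 called 8161 genes in aged mice, 5414 in young mice and 1791 for the difference between ages, and limma-voom 8182, 5272 and 1314. The difference between ages fell to 841 genes without aged MPP replicates 2 and 4, against 1411, and the cause was not tested. With 1 library left out, counts ran from 7638 to 7772 in aged mice, from 4606 to 5022 in young mice (main value 5287) and from 1007 to 1616 for the difference between ages. A replicate block gave 8065, 5350 and 1499. Deviations of libraries with the same number correlated at 0.024, -0.013, 0.0375 and -0.029 in aged and 0.0495, 0.035, 0.0866 and -0.012 in young mice. No strong effect shared by number was seen. Such low values cannot settle whether libraries with the same number came from the same mouse. Of 1835 values for the 102 genes chosen by the naming rule in the aged comparison, 1816 kept direction and side of the threshold, 15 no longer passed and 4 newly passed, with 4 genes losing the call under some alternative (among them Ctsg, Mpo and Il1rl1). Of 1586 values for the difference between ages in 61 such genes, 101 no longer passed, in 16 genes. Histone genes with a more negative difference in aged mice numbered 8, and 1 without aged MPP replicates 2 and 4. Depth limits genes with a group at 0, whose folds are bounds.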

Other observations

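Imprinted genes, expressed from 1 parental copy and many of them known from fetal growth and stem cell quiescence, were mostly higher in aged LT-HSC than in aged MPP. Of 29 tested, 25 were higher, 1 was lower (Gnas, -0.63 on the log2 scale) and 3 were not called (Mest, Nnat and Peg13), with a median of 2.74. The list was put together after values were seen, and no test of the list was made. The growth factor receptor adaptor Grb10 had 243, 308, 231 and 237 CPM in aged LT-HSC, against 7.21, 5.96, 4.68 and 5.39 CPM in aged MPP (log2 difference 5.45 ± 0.26). Ndn, the growth suppressor necdin, had 48.6, 49.8, 47.1 and 50.9 CPM in aged LT-HSC, against 0.691, 0.889, 0.375 and 2.16 CPM in aged MPP (log2 difference 5.57 ± 0.29). Neither gene overlapped between the groups. Genes of the Dlk1 and Meg3 cluster were high in the same libraries: Rian, a noncoding RNA of the cluster, had 43.1, 19.3, 12.0 and 38.2 CPM in aged LT-HSC, against 0.494, 0, 0 and 0 CPM in aged MPP. In aged LT-HSC, Meg3, Rian and Dlk1 were each higher in replicates 1 and 4 than in replicates 2 and 3. Igf2r averaged 159 ± 12.2 CPM in aged LT-HSC and 60.3 ± 13.1 CPM in aged MPP, and its antisense partner Airn 16.3 ± 2.15 CPM in aged LT-HSC and 2.43 ± 0.811 CPM in aged MPP, with reads of this overlapping pair not separable. In young mice 20 of the 29 were higher in LT-HSC and none lower, with a median of 1.38.

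Circadian clock genes, a list also chosen after values were seen and not tested as a list, were higher in aged LT-HSC for 12 of 19, lower for 5 and not called for 2 (Cry2 and Dbp). Rorb, an orphan nuclear receptor of the clock, had 43.2, 77.2, 65.6 and 59.5 CPM in aged LT-HSC, against 3.55, 1.87, 0 and 3.33 CPM in aged MPP (log2 difference 4.81 ± 0.73). The groups did not overlap for Rorb, and its relative Rora was higher by 1.95. The activators Clock, Npas2 and Arntl were higher by 0.83, 3.39 and 0.92. Of the repressors, Per1 was higher by 1.02, while Per2 (-0.35) and Cry1 (-1.23) were lower, as were the output regulators Tef (-0.87), Nfil3 (-1.79) and Bhlhe41 (-1.80). The time of day at which marrow was taken is not given in the labels.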
